A study of Mus musculus with 19 samples.

Results

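The cell-cycle and DNA replication genes described here are 36 genes, chosen by name, out of 24721 genes named in the deposited RNA table. They comprise 14 genes of the G1/S transition and DNA synthesis and 22 genes of G2 and mitosis. A dividing cell first loads the MCM helicase on replication origins, then makes deoxynucleotides and copies its DNA around the clamp PCNA, and later builds a spindle under the control of CDK1, the Aurora kinases and PLK1. E2F factors switch on the first set of genes, and the DREAM and MuvB complexes, which bind CHR elements in promoters, keep the mitotic set off in resting cells and help to switch it on later. Microglia of the healthy adult brain divide rarely and multiply when myelin is lost.

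ChIP-seq of H3K27ac, an acetylated form of histone H3 found at promoters and enhancers in use, was done on microglia sorted from brains of C57BL/6 mice. WT mice (PRMT1Ifl/fl in the labels) carried floxed alleles of the arginine methyltransferase gene Prmt1 without Cre, and KO mice carried PRMT1fl/fl and cx3r1cre-ert2, a tamoxifen-dependent Cre active in every cell that expresses Cx3cr1. WT basal and KO basal mice ate a normal diet (time given as 11 weeks). The other 3 groups came from mice fed 0.2% cuprizone (CPZ, which binds copper and causes loss of oligodendrocytes and their myelin) for 5 weeks. The protocol in the labels, the same for every sample, has mice of 4 to 6 weeks start this diet, whereas the methods of the study have it start later, after tamoxifen was injected into floxed mice with and without Cre. After the diet the microglia were split by the surface integrin CD11c, which gave the groups WT CD11c-high, WT CD11c-low and, from KO mice, KO CD11c-low. Each group had 2 H3K27ac libraries, described in the labels as independent biological replicates, and KO basal H3K27ac was not analysed here. The other measurement was a deposited RNA table, in which WT basal had 3 libraries, KO basal 2 and each CPZ group 1.

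Relative to the mean of the 8 libraries, H3K27ac depth was 56.2% and 85.1% in WT basal and between 100% and 118% in the other 6 libraries, so values in WT basal rest on the fewest reads. In the RNA table, 9 of 10 microglial markers had an entry, and 8 of these 9 ranked among the first 97 genes by mean level per kilobase, led by Cx3cr1, Tmem119 and P2ry12. Sall1 had no named row. The RNA of Prmt1 itself stood at a log2 fold change of -0.32 in KO basal against WT basal and -0.54 in KO CD11c-low against WT CD11c-low, and a value for the whole gene also counts exons outside a deleted part. In these bulk libraries, fewer dividing cells and less RNA or acetylation per cell cannot be told apart.

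Promoter sequences are shown first because the genes differ in the elements they carry. Of the 36 genes, 29 matched an entry of the RefSeq promoter set (GRCm38.p6, the same assembly as mm10), with 250 bases before and 50 bases after the start. Letters were searched on both strands. The CHR element TTTGAA was found in 12 of 17 G2/M promoters (70.6%) and in 1 of 12 G1/S promoters (8.33%, Mcm2), against 20.2% of 27025 genes. The CCAAT box was found in 15 of 17 G2/M promoters (88.2%) and 8 of 12 G1/S promoters (66.7%), against 41.1% of all genes. Of E2F sites, 3 forms were searched, which can overlap, namely GGCGGGA, and TTTCGCG, and also TTTGGCG. At least 1 of them was found in 7 of 17 G2/M promoters (41.2%) and 6 of 12 G1/S promoters (50%), against 14.8% of all genes. A match of letters is a description and not evidence of binding.

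The 120 bases before the start of 9 genes are given 5′ to 3′ on the coding strand, with matches to those letters in capitals. The first 5 are the mitotic genes Cdk1, Mki67 and Kif11, which had a listed peak, and Top2a and Ube2c, which had none although their RNA stood at log2 2.65 and 3.27 in WT CD11c-low against WT basal. The other 4 are G1/S genes, of which Ccne1 and E2f1 had a listed promoter peak, Rrm2 a listed intronic peak and Mcm6 none.
Cdk1 (chr10:69352913-69353032, minus strand): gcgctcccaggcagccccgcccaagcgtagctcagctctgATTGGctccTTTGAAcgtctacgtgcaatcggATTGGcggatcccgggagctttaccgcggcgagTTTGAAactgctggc
Mki67 (chr7:135716380-135716499, minus strand): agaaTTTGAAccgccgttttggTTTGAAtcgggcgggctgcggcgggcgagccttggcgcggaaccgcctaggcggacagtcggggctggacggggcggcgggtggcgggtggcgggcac
Kif11 (chr19:37376262-37376381, plus strand): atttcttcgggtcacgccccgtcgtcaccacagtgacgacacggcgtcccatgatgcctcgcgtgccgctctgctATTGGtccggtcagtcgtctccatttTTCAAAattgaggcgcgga
Top2a (chr11:99024190-99024309, minus strand): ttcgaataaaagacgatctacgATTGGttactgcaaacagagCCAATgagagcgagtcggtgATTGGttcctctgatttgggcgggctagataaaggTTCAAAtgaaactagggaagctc
Ube2c (chr2:164769809-164769928, plus strand): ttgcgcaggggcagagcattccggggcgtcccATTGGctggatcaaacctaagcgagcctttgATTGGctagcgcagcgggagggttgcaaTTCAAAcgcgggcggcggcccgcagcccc
Ccne1 (chr7:38107491-38107610, minus strand): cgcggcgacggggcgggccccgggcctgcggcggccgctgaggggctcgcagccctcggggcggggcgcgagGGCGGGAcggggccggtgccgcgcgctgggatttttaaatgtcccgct
E2f1 (chr2:154569427-154569546, minus strand): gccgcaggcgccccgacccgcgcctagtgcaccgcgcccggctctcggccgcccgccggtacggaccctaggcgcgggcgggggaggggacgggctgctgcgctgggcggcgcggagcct
Rrm2 (chr12:24708134-24708253, plus strand): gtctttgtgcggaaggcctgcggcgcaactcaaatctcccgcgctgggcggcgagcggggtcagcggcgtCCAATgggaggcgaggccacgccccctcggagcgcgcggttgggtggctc
Mcm6 (chr1:128359706-128359825, minus strand): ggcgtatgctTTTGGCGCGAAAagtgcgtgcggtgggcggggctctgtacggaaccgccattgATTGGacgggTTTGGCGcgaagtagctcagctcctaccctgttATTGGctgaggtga

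The first question was whether H3K27ac near these genes differed between CPZ and normal diet. In WT CD11c-low against WT basal, 7 of 36 genes (19.4%) were nearest to at least 1 peak that the deposited lists hold as higher: Rrm2, Ccne1, E2f1, Cdk1, Mki67, Bub1b and Cenpe. Over all genes that share was 10.5%, and 14.6% of all tested peaks were listed as higher. None of the 36 genes had a peak listed as lower, where the share was 1.8% of all genes and 1.86% of all tested peaks. The 29 other genes, among them all 6 MCM genes and Pcna, had no listed peak in this comparison.

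For WT CD11c-high against WT basal, 7 of 36 genes (19.4%) had a higher listed peak, against 12.7% of all genes and with 18.3% of tested peaks listed. They were Ccne1, E2f1, Cdk1, Mki67, Bub1b, Cenpe and Kif11. Cenpf was the only gene with a lower one (2.78%, against 5.13% of all genes and 6.42% of tested peaks). The 2 comparisons share the WT basal libraries. None of the 36 genes was nearest to a listed peak in WT CD11c-high against WT CD11c-low, where 0.825% of all genes had a higher and 0.7% a lower peak (1.03% and 0.886% of tested peaks). Nor was any in KO CD11c-low against WT CD11c-low, where the shares were 0.74% and 0.178% of genes (0.867% and 0.191% of tested peaks). Between KO CD11c-low and WT CD11c-high, 1 gene (Cenpe) had peaks that were lower in the KO cells, against 1.33% of all genes (1.44% of tested peaks), and none had higher ones, against 1.66% (1.98% of tested peaks). The lists hold what passed the DESeq2 test of the deposited analysis (adjusted p below 0.05, and at least a doubling or halving). Other peaks carry no value here, so counts at an unadjusted p were not analysed and a gene without a listed peak is not shown to be unchanged.

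**Figure D1:**
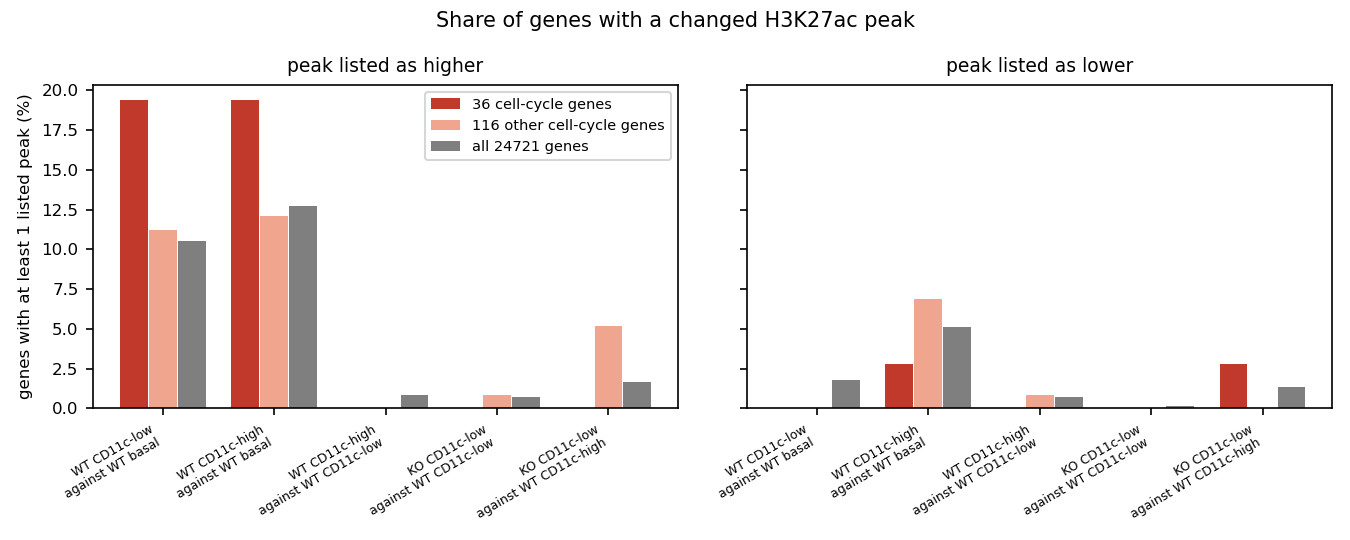
Bars give the percentage of genes nearest to at least 1 listed H3K27ac peak, by comparison (horizontal axis) and direction (left panel, higher; right panel, lower), for the 36 cell-cycle genes, 116 other cell-cycle genes and all 24721 genes. The 36 genes stand at 19.4% for higher peaks in both comparisons with WT basal, and no bar is drawn where the count is 0.

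At the 26 listed rows nearest to the 36 genes, values are normalized tag counts, which the authors scaled to the mean size of the 4 libraries of a comparison. Each row was fitted with limma on log2(value + 1) over all listed peaks of its comparison. Because those peaks had already been selected on the same libraries, the fit describes the spread between libraries and is no independent call: 100% of the 4334 peaks listed as higher in WT CD11c-low against WT basal passed it. All 26 rows passed it too, and in all 26 the values of the 2 groups did not overlap. The selection favours such rows and the share over all listed peaks was not counted. The lack of overlap is therefore not read as a trait of the 36 genes. With 2 libraries against 2, an exact permutation test of a single peak cannot go below p = 0.333.

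Mki67, which encodes the Ki-67 protein that coats mitotic chromosomes and marks dividing cells, had the most listed rows, 8 in all. In WT CD11c-low against WT basal, the peak over its start and first intron (chr7:135715108-135716587, 0.5 kb inside the gene) held 11.5 and 14.1 tags in the WT basal libraries and 151 and 136 in the WT CD11c-low libraries. The limma difference was 3.39 on the log2 scale (SE 0.25, limma adjusted p = 8.6e-05), and the end of the region with the higher coordinate covers the printed promoter with its pair of CHR letters. In WT CD11c-high against WT basal a narrower peak in the 5′ UTR (chr7:135715839-135716467) held 7.99 and 9.49 tags in WT basal and 64.9 and 63.8 in WT CD11c-high (difference 2.75, SE 0.24, limma adjusted p = 2.6e-04).

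The other Mki67 rows were intergenic or exonic. At chr7:135773315-135774531, at -57.5 kb from the start, WT basal held 1.64 and 6.51 tags and WT CD11c-low 58.8 and 57.8 (difference 3.74, SE 0.46), the largest difference among the 10 rows of this comparison. Only 7 reads lay behind the WT basal values, and the ratio of reads, scaled to library depth, was 12.8 (95% exact counting interval 6.04 to 32.3). The overlapping region in WT CD11c-high against WT basal (chr7:135773515-135774623) held 1.6 and 6.33 tags in WT basal and 74.7 and 68.4 in WT CD11c-high (difference 4.05, SE 0.49). All 4 CPZ libraries thus stood far above both WT basal libraries in this region, a separation that the selection of listed peaks favours.

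At -197.9 kb from the start (chr7:135913474-135915073), WT basal held 36.1 and 29.3 tags and WT CD11c-low 98.1 and 122 (difference 1.72, SE 0.26). In the comparison with WT CD11c-high that region (chr7:135913287-135915168) held 35.1 and 28.5 tags in WT basal and 160 and 189 in WT CD11c-high (difference 2.42, SE 0.26). Since each comparison was scaled on its own and the region was drawn anew, the CD11c-low and CD11c-high values are set side by side only, and no listed peak of Mki67 separated these groups. A region at -51.7 kb from the start (chr7:135767530-135768559) was listed only for WT CD11c-high, with 24 and 12.7 tags in WT basal and 70.2 and 71.5 in WT CD11c-high. So was exon 7 of 14 (chr7:135705413-135705913), with 7.99 and 2.11 tags in WT basal and 22.2 and 19.2 in WT CD11c-high. An edgeR fit of read numbers, with TMM factors over the listed peaks alone, lost the call at -197.9 kb for WT CD11c-low (0.23, edgeR adjusted p = 0.49). For WT CD11c-high it lost those at -51.7 kb (0.54, edgeR adjusted p = 0.15) and in exon 7 (0.70, edgeR adjusted p = 0.33). Mki67 was the gene with the nearest start for every one of these regions, which does not show that they act on it. The nearest other coding gene was Ptpre, 19.1 kb to 227.2 kb away.

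Cdk1, the kinase that drives entry into mitosis, had 1 row per comparison, in its first intron and ending just short of the start. The peak at chr10:69350508-69352840 held 50.9 and 35.8 tags in WT basal and 228 and 234 in WT CD11c-low, a difference of 2.41 (SE 0.27, limma adjusted p = 2.5e-04). The corresponding peak chr10:69350677-69352901 held 49.5 and 34.8 tags in WT basal and 262 and 241 in WT CD11c-high (difference 2.57, SE 0.27). Both pairs of CPZ libraries were closer to each other than to either WT basal library, which the selection of listed peaks favours.

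E2f1, the E2F factor that turns on S-phase genes, had a promoter peak. At chr2:154569131-154571490 it held 67.3 and 62.9 tags in WT basal and 260 and 236 in WT CD11c-low (difference 1.91, SE 0.24, limma adjusted p = 3.7e-04). At chr2:154568928-154571231 it held 67.1 and 65.4 tags in WT basal and 284 and 239 in WT CD11c-high (difference 1.96, SE 0.24). In an edgeR fit with TMM factors computed over the listed peaks alone, the call for WT CD11c-low was lost (0.38, edgeR adjusted p = 0.063). The printed promoter held none of the searched letters.

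Ccne1, the cyclin that activates CDK2 at the G1/S transition, also had a promoter peak, with the smallest differences among the promoter peaks. The region chr7:38107455-38108347 held 31.2 and 17.4 tags in WT basal and 65.9 and 62 in WT CD11c-low (difference 1.42, SE 0.32). The region chr7:38107445-38108355 held 30.4 and 17.9 tags in WT basal and 72.9 and 63 in WT CD11c-high (difference 1.50, SE 0.32). In an edgeR fit with TMM factors computed over the listed peaks alone, the 2 differences became -0.08 and 0.06 (edgeR adjusted p = 0.86 and 0.87). A second, intergenic region 36.6 kb beyond the start (chr7:38070657-38071157) held 3.2 and 3.16 tags in WT basal and 32 and 22.3 in WT CD11c-high. That row rests on 5 reads in WT basal, and its ratio of reads, scaled to library depth, was 8.44 (95% exact counting interval 3.44 to 26.9).

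Rrm2 encodes the small subunit of ribonucleotide reductase, which makes deoxynucleotides for DNA synthesis. A narrow peak in intron 4 of 9 (chr12:24709436-24709936, 1.4 kb inside the gene) held 3.29 and 0 tags in WT basal and 19.6 and 19.3 in WT CD11c-low (difference 3.30, SE 0.60, limma adjusted p = 0.0016). The WT basal values stand for 2 reads against 48 in WT CD11c-low. Scaled to library depth, the ratio was 14.9, with a 95% exact counting interval of 3.90 to 126. Such intervals cover counting error only.

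Bub1b encodes BUBR1 of the spindle checkpoint. Its peak in intron 2 of 22 (chr2:118600656-118602563, 3.4 kb inside the gene) held 54.2 and 40.1 tags in WT basal and 242 and 193 in WT CD11c-low (difference 2.19, SE 0.28). The narrower region chr2:118601280-118602563 held 46.3 and 34.8 tags in WT basal and 177 and 178 in WT CD11c-high (difference 2.11, SE 0.26). Kif11, the motor that pushes spindle poles apart, had an intergenic peak at -5.9 kb from its start (chr19:37369937-37371080) with 44.7 and 42.2 tags in WT basal and 84.4 and 116 in WT CD11c-high. Its difference of 1.17 (SE 0.27, limma adjusted p = 0.0056) was the smallest of the 13 higher rows and rested on WT CD11c-high replicate 2, without which limma gave 0.94 and an adjusted p of 0.085. In an edgeR fit with TMM factors over the listed peaks alone, the Kif11 difference turned to -0.28 (edgeR adjusted p = 0.32).

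Cenpf, a kinetochore protein of G2 and mitosis, was the exception in direction. The intergenic peak at -18.9 kb from its start (chr1:189706487-189707398) held 38.3 and 28.5 tags in WT basal and 8.89 and 14.6 in WT CD11c-high (difference -1.45, SE 0.32, limma adjusted p = 0.005). The call was lost without WT CD11c-high replicate 1 (-1.13, limma adjusted p = 0.061). The other coding gene nearest to this peak was Ptpn14, 20.8 kb away, and the RNA of Cenpf in the same comparison stood at log2 1.68, in the other direction.

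**Figure D2:**
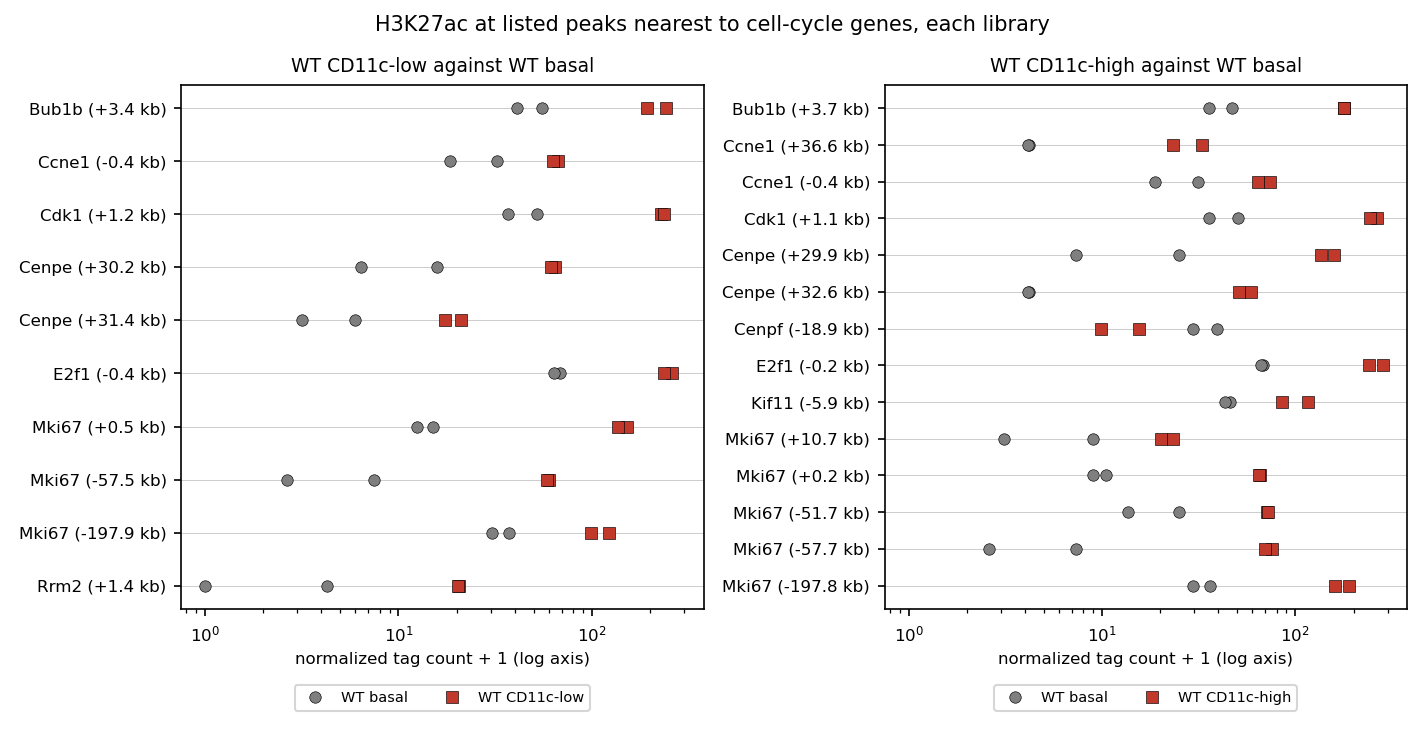
Each row is a listed peak, named by its nearest gene and distance from the start, and each point is 1 library (circles, WT basal; squares, CPZ group), on a log axis of the normalized tag count plus 1. The left panel has 10 peaks and the right panel 14. Squares lie to the right of both circles in every row but that of Cenpf, and the selection of listed peaks favours such separation.

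Cenpe, a kinesin that brings chromosomes to the spindle equator, had 6 rows in 3 comparisons, all in introns 27 to 29 of 45, about 30 kb inside the gene. In WT CD11c-low against WT basal, chr3:135242406-135243176 held 14.8 and 5.42 tags in WT basal and 63.5 and 60.3 in WT CD11c-low (difference 2.64, SE 0.42). The neighbouring chr3:135243725-135244225 held 4.93 and 2.17 tags in WT basal and 16.5 and 20.1 in WT CD11c-low (difference 2.15, SE 0.34). An edgeR fit with TMM factors over the listed peaks alone lost that call (0.91, edgeR adjusted p = 0.26). In WT CD11c-high against WT basal, chr3:135241718-135243172 held 24 and 6.33 tags in WT basal and 135 and 158 in WT CD11c-high (difference 3.44, SE 0.56), and the WT basal replicates differed widely there. The region chr3:135244848-135245493 held 3.2 and 3.16 tags in WT basal and 57.8 and 50 in WT CD11c-high (difference 3.71, SE 0.24).

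These last 2 regions were also the only ones nearest to any of the 36 genes that were listed between KO and WT cells. Scaled anew for the KO CD11c-low and WT CD11c-high libraries, chr3:135241718-135243172 held 162 and 190 tags in WT CD11c-high, against 72.1 and 78.1 in KO CD11c-low (176 ± 19.8 and 75.1 ± 4.24, SD, n = 2). The difference was -1.21 (SE 0.18, limma adjusted p = 0.0031). The second region held 69.3 and 60 tags in WT CD11c-high, against 22.6 and 25.7 in KO CD11c-low (64.7 ± 6.61 and 24.2 ± 2.20, SD, n = 2), a difference of -1.38 (SE 0.18, limma adjusted p = 0.0025). These groups differ in genotype and in CD11c sort, which cannot be told apart in this comparison. Cenpe was nearest to no listed peak in the comparisons of KO CD11c-low or WT CD11c-high with WT CD11c-low. The RNA of Cenpe stood at log2 0.13 for KO CD11c-low over WT CD11c-high.

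**Figure D3:**
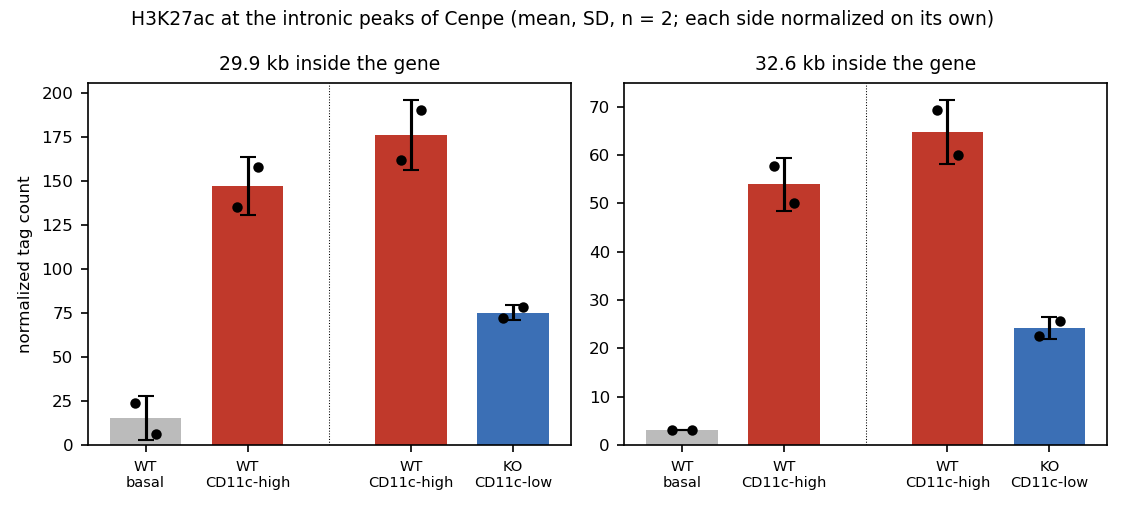
Bars give the mean normalized tag count, with SD as error bars and 2 libraries as points, at the Cenpe peaks 29.9 kb and 32.6 kb inside the gene. In each panel the pair on the left was scaled together, as was the pair on the right, so heights compare within a pair; WT CD11c-high stands above WT basal and above KO CD11c-low at both peaks.

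The central 300 bases of these 2 Cenpe regions are shown because no other region near the 36 genes was listed between KO and WT cells. They were searched on both strands for letters of factors known from microglial and macrophage enhancers, namely PU.1 (GAGGAAGT), AP-1 (TGANTCA), RUNX (TGTGGTT) and the E-box (CACGTG). Neither window held any of them, so no capitals appear. The shares over all 909 listed peaks of the comparison were 5.17%, 10.2%, 6.71% and 4.29%. Over the 14 rows of WT CD11c-high against WT basal, PU.1 letters were found in exon 7 of Mki67, AP-1 letters near Bub1b and in the intergenic Ccne1 region, RUNX letters in that Ccne1 region and near Cenpf, and E-box letters in the Mki67 region at -51.7 kb. The shares over its 7520 listed peaks were 5.51%, 11.2%, 7.57% and 4.72%. Over the 10 rows of WT CD11c-low against WT basal, the 1 match was of AP-1 letters in the Mki67 region at -57.5 kb, and 10.8% of the 4886 listed peaks held these letters.
Cenpe, first region (chr3:135242296-135242595, plus strand): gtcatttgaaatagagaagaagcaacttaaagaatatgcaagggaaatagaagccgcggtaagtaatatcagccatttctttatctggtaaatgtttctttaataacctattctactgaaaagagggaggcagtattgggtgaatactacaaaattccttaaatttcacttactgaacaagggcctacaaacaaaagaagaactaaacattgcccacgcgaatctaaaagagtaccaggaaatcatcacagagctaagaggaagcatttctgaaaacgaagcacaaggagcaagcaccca
Cenpe, second region (chr3:135245021-135245320, plus strand): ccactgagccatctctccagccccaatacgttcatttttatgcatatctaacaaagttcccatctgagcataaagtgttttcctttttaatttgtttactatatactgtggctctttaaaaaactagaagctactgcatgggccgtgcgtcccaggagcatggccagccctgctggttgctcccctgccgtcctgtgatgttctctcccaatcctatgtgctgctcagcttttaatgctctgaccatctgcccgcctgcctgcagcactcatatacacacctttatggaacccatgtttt

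The RNA values that follow are log2 fold changes of the deposited RNA table, positive where the first-named group was higher, with the mean level over the libraries of that comparison. They have no test here, because each CPZ group was 1 library. Counts of genes above 0 are given without the share of all genes above 0. Alone, such counts do not set the 36 genes apart from a shift of a whole library. At rest in the basal table, the 36 genes were low next to microglial markers: per kilobase, the mean level was 71.8 for Pcna and 63.5 for Mcm3, 3.66 for Mki67 and 0.330 to 5.35 for the G1/S cyclins and E2f1, against a median of 604 for the microglial markers. In KO basal against WT basal the median of the 36 genes was -0.17 and none of them had an adjusted p under 0.05 in that table (lowest 1.00), a threshold that 40 of 24733 genes (0.162%) passed. No gene stood above 1, where 6.4% of all genes and 0.857% of those with a mean level of at least 10 did. Of the 17 genes with a mean level of at least 10, Top2a was lowest (-0.79), followed by Mcm2 (-0.54), Mcm5 (-0.48), Cdk1 (-0.31) and Plk1 (-0.26). Highest were E2f1 (0.29), Ccna2 (0.28), Bub1b (0.17), Cenpf (0.13) and Rrm1 (0.10), and Mki67 stood at -0.12 and Pcna at -0.05. Ccnb1 (-2.23) and Ube2c (-1.55), named after their values were seen, were the only genes below -1, where 5.2% of all genes (0.319% with that level) were, and their mean levels were 1.62 and 4.01.

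Against WT basal, all 36 genes stood above 0 in WT CD11c-low, with a median of 2.39, whereas the median of all genes with a mean level of at least 10 was -0.05. Of the 36 genes, 29 stood above 1 and none below -1, against 15.1% and 7.68% of all genes. With the level limit the counts were 24 and 0 of 31 genes, against 10.4% and 5.29%. A gene passes that limit more easily when it is high in 1 group, so the count without it leads here. At mean levels of 10 to 100, where most of the 36 genes lie, 21.1% of all genes stood above 1 and 7.84% below -1.

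The G2/M genes were the more uniform group in that comparison. All 22 stood above 1, from 1.56 (Plk1) to 3.29, with a median of 2.59. Ube2c, the E2 enzyme of the anaphase-promoting complex, and Tpx2, which activates Aurora A on the spindle, both stood at 3.27, Cenpe at 2.88 and Kif11 at 2.81. Mki67 stood at 2.77 and Top2a, the topoisomerase that untangles chromosomes, at 2.65. Cdk1 was at 2.53, Cenpf at 1.92 and Bub1b at 1.65.

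The 14 G1/S genes were split. Rrm2 was the highest of all 36 genes at 3.45, an 11.0-fold difference, and E2f1 stood at 2.63 and Ccne1 at 2.46, the last with a mean level of only 5.58. The lowest values belonged to Mcm7 at 0.15, Pcna at 0.17, Mcm3 at 0.31, the large reductase subunit Rrm1 at 0.43, Mcm4 at 0.46 and Mcm2 at 0.78. Within the MCM helicase, Mcm6 stood at 0.96 and Mcm5 at 1.45, above Tyms at 1.12. Per kilobase, the mean levels of Pcna (74.9) and Mcm3 (70.5) were the highest of the set. The 7 genes with a higher listed H3K27ac peak had a median of 2.63 and the 29 without one a median of 2.32, and the first set ran from 1.65 to 3.45.

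For WT CD11c-high against WT basal, 34 of 36 genes stood above 0, with a median of 1.68 (all genes with a mean level of at least 10, -0.10). Above 1 stood 26 genes and below -1 none, against 10.7% and 14.4% of all genes. With the level limit the counts were 17 and 0 of 26 genes, against 8.61% and 9.35%. Ube2c and Kif20a (both 3.23), Cenpe (3.22), Rrm2 (3.19) and Tpx2 (2.90) were highest among the genes with that level, and Ccne2, under it, stood at 3.88. Mki67 stood at 2.66, E2f1 at 2.74, Cdk1 at 2.72, Kif11 at 2.79, Top2a at 2.36, Bub1b at 1.28 and Ccne1 at 0.64. Mcm3 (-0.29) and Mcm7 (-0.13) were below 0, and Plk1 (0.16), Tyms (0.25) and Rrm1 (0.28) were the next lowest. Mcm2 stood at 0.72 and Pcna at 0.48. The median was 2.35 for the G2/M genes and 0.68 for the G1/S genes.

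**Figure D4:**
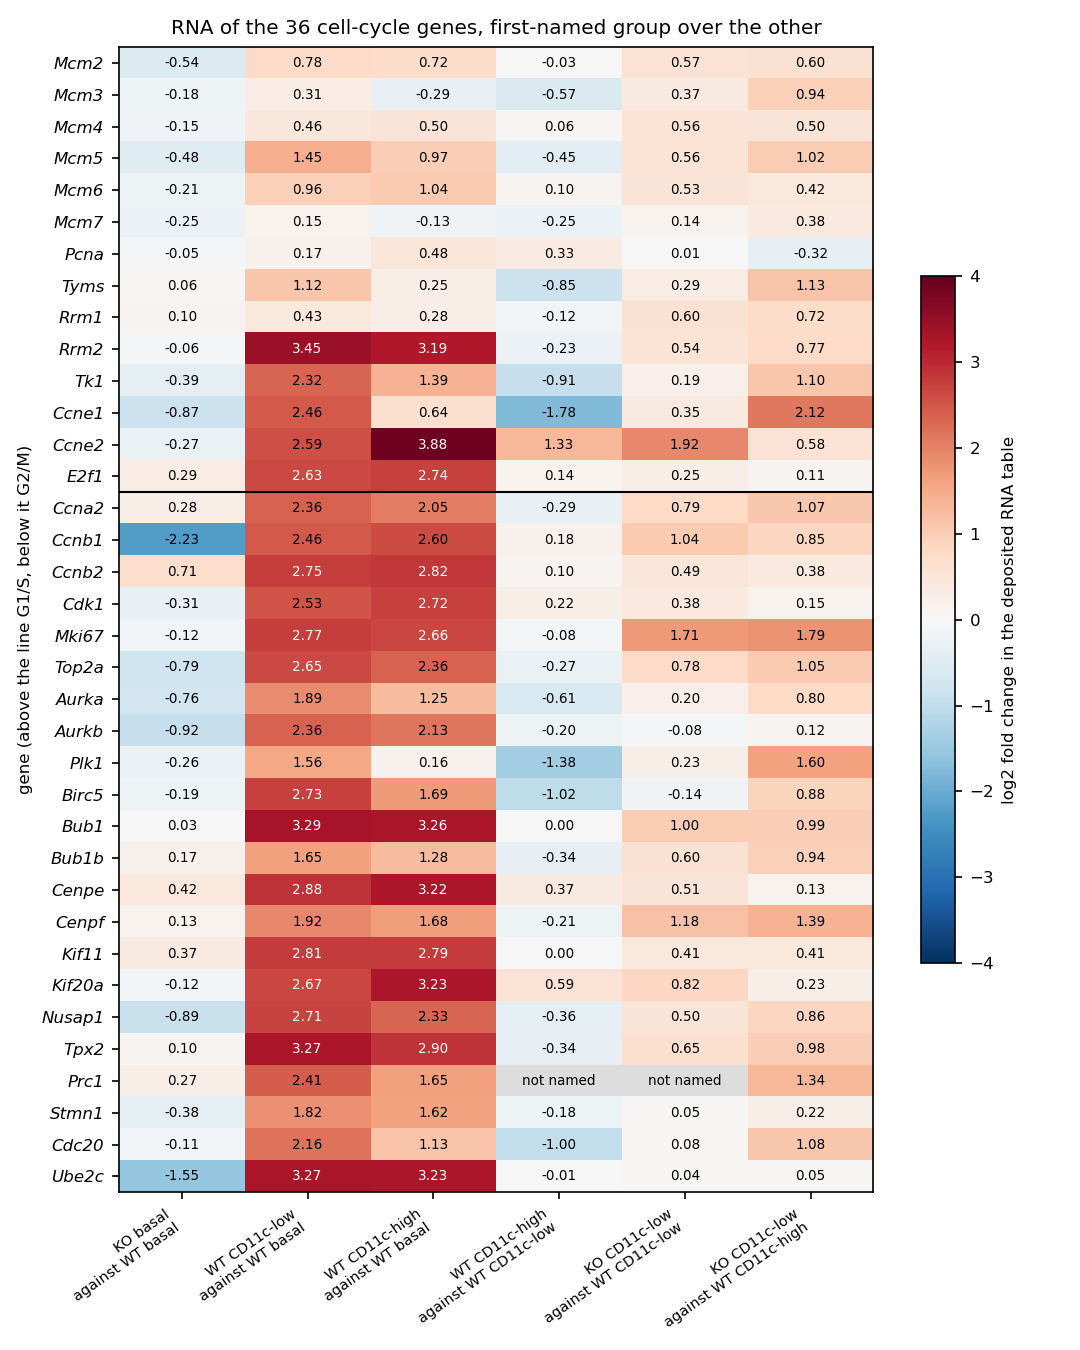
Each cell gives the deposited log2 fold change of a gene (rows; G1/S genes above the line, G2/M genes below it) in 1 comparison (columns), with red for higher and blue for lower in the first-named group. Columns 2 and 3 are red for nearly all G2/M genes, up to 3.29 and 3.26, and paler for Pcna and most MCM genes, of which Mcm5 reached 1.45 and Mcm6 1.04; Prc1 had no named row in the KO CD11c-low and WT CD11c-high comparisons with WT CD11c-low.

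The CD11c sorts were compared next. In WT CD11c-high against WT CD11c-low, 35 of the 36 genes had a named row, with a median of -0.20. Ccne2, the other G1/S cyclin of the E type, was the only gene above 1 (1.33, against 4.35% of all genes and 1.51% with the level limit), and 3 genes were below -1, against 13.6% and 6.8%. These were Plk1 (-1.38), Birc5 (-1.02), which encodes survivin of the chromosomal passenger complex, and Ccne1 (-1.78), whose mean level of 8.15 did not reach the limit. Cdc20, which activates the anaphase-promoting complex, lay close to -1. Tk1 stood at -0.91, Tyms at -0.85, Kif20a at 0.59, Cenpe at 0.37, Pcna at 0.33, Cdk1 at 0.22, E2f1 at 0.14, Mcm2 at -0.03, Mki67 at -0.08 and Top2a at -0.27.

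With genotype as the contrast in the same sort, KO CD11c-low against WT CD11c-low, 33 of 35 genes stood above 0, with a median of 0.50 (all genes with a mean level of at least 10, 0.02). None was below -1, against 14% of all genes and 7.9% with the level limit. Of the 35 genes, 5 passed 1, against 4.19% and 3.49%. They were Ccne2 (1.92), Mki67 (1.71), Cenpf (1.18), Ccnb1 (1.04), the cyclin partner of CDK1, and Bub1 (1.00), a spindle checkpoint kinase. Mki67 had a mean level of 598 there and a 3.26-fold difference. Top2a stood at 0.78, Bub1b at 0.60, Mcm2 at 0.57, Rrm2 at 0.54, Cenpe at 0.51, Kif11 at 0.41, Cdk1 at 0.38, Ccne1 at 0.35, E2f1 at 0.25, Stmn1 at 0.05, Ube2c at 0.04 and Pcna at 0.01. Birc5 (-0.14) and Aurkb (-0.08) were the genes below 0. With 1 library on each side, these values have no replicate check.

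For KO CD11c-low over WT CD11c-high, a comparison that shares the KO library, 35 of 36 genes stood above 0, with a median of 0.83. Above 1 stood 11 genes, against 8.11% of all genes, and none below -1, against 7.18%; with the level limit the shares were 5.29% and 3.42%. Mki67 (1.79), Plk1 (1.60), Cenpf (1.39), Prc1 (1.34), which bundles midzone microtubules, and Tyms (1.13), the thymidylate synthase, were the 5 highest with the level limit. Pcna was the only gene below 0 (-0.32), and Ube2c (0.05), E2f1 (0.11), Aurkb (0.12), Cenpe (0.13) and Cdk1 (0.15) were close to it. Top2a stood at 1.05, Bub1b at 0.94, Rrm2 at 0.77, Mcm2 at 0.60 and Kif11 at 0.41. Ccne1 stood at 2.12 with a mean level of 8.35. In none of these KO comparisons did Mki67, Cenpf or any other of these genes have a higher listed H3K27ac peak.

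**Figure D5:**
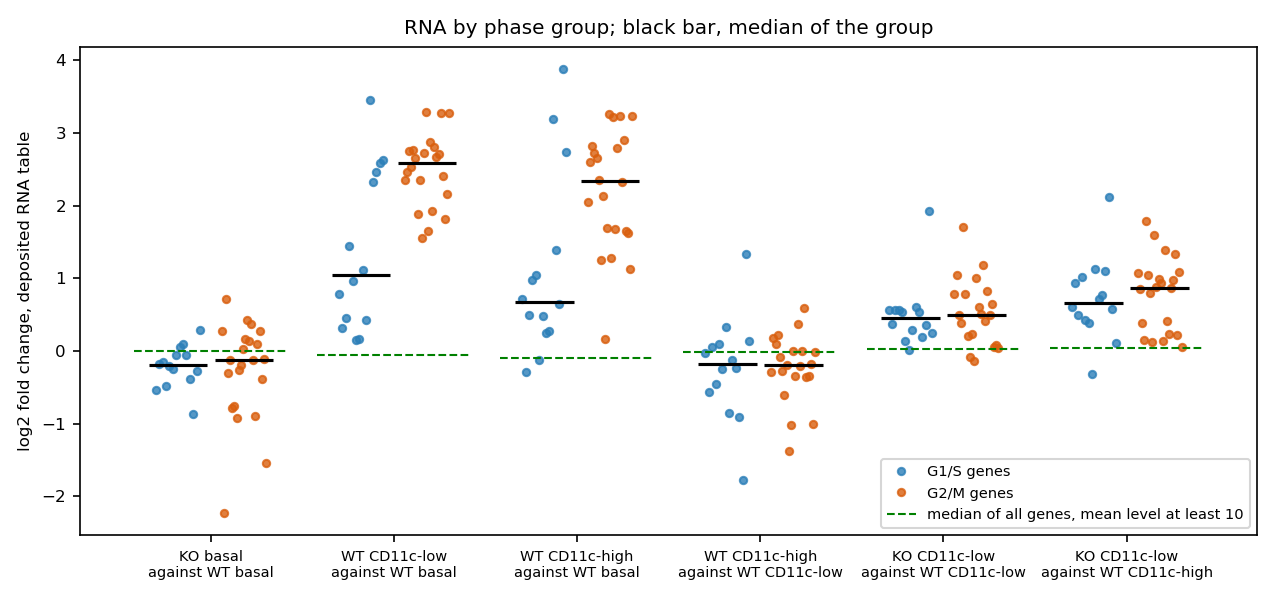
Points are the 14 G1/S and 22 G2/M genes in each of the 6 comparisons (horizontal axis), on the scale of the deposited log2 fold change (vertical axis). Black bars are group medians and dashed lines the median of all genes with a mean level of at least 10; in WT CD11c-low against WT basal the bars stand at 1.04 and 2.59.

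Marker lists of other brain and blood cells also differed between groups. In WT CD11c-low against WT basal, 5 of 6 oligodendrocyte precursor markers stood above 1 (median 1.73, summed mean level 384) and 6 of 8 endothelial markers did (median 2.48, summed mean level 578), as did 4 of 8 oligodendrocyte, 5 of 8 astrocyte and 1 of 8 monocyte and border macrophage markers, where 15.1% of all genes did. Cspg4 alone gave 309 of the precursor sum, at log2 6.30. The study also names Cspg4 for a microglial cluster, so that sum is no measure of precursor cells. The summed mean level of the 9 microglial markers was 13161, and their median was -0.51. In WT CD11c-high against WT basal the medians were 0.18, 0.70 and -1.79 for the precursor, endothelial and monocyte lists. In KO CD11c-low against WT CD11c-low they were -2.01, -1.43 and -1.02. Defining lymphocyte markers were partly absent, with 4 of 10 at 0 in the first of these comparisons. Only means over both groups of a comparison were read here, and the part of other cells in the cell-cycle values was not tested.

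The wider cell cycle was read from 116 other genes in 11 lists. In WT CD11c-low against WT basal, 13 of them (11.2%) had a higher listed peak, near the 10.5% of all genes, and none a lower one. In WT CD11c-high against WT basal 14 did (12.1%, against 12.7%) and 8 had a lower one (6.9%, against 5.13%). At Uhrf1, which brings DNA methylation to replicated DNA, the promoter peak held 26.3 and 19.5 tags in WT basal and 94.1 and 77.9 in WT CD11c-low (difference 1.87, SE 0.27). At Brca1, a DNA repair gene, an intron 2 peak held 14.8 and 14.1 tags in WT basal and 72.2 and 59.5 in WT CD11c-low (difference 2.11, SE 0.25). At Clspn, which supports the replication checkpoint, a peak at -3.8 kb from the start held 39.4 and 26 tags in WT basal and 110 and 116 in WT CD11c-low (difference 1.78, SE 0.28). Both WT CD11c-low libraries stood above both WT basal libraries at these 3 peaks, a separation that the selection of listed peaks favours. The remaining genes of this comparison were Cdk6, Cdkn1a, E2f2, E2f3, Pola2, Rfc5, Knl1, Kif2c, Kif23 and Incenp. Among them, peaks given to Rfc5 overlapped the neighbouring gene Wsb2.

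By RNA, 66 of the 116 genes stood above 1 in WT CD11c-low against WT basal (median 1.26, 15.1% of all genes above 1), and none below -1 (7.68% of all genes). With a mean level of at least 10, 33 of 80 did (median 0.77, against 10.4% of all genes). The spindle and midzone list held 15 of 17 above 1 (median 2.27, with Kif4 at 3.30, Cdca8 at 3.25 and Kif18b at 3.14) and the kinetochore list 11 of 13 (median 1.90, with Cenpm at 3.42). With a mean level of at least 10 these were 8 of 10 (median 2.15) and 2 of 4 (median 1.45). Kif4 (9.97), Kif18b (9.06) and Cenpm (4.13) lay under that level. None of the 6 G1 cyclins and CDKs stood above 1 (median 0.16). The pocket protein, E2F and MuvB list stood at 0.04, with E2f8 at 2.70 and E2f7 at 2.40 (mean level 4.72). Among CDK inhibitors, which stop the cycle, 5 of 7 stood above 1. They were Cdkn2a at 5.53 (mean level 6.22), Cdkn2c at 2.06, Cdkn2b at 1.68 (mean level 4.75), Cdkn2d at 1.62 and Cdkn1a at 1.32. In KO CD11c-low against WT CD11c-low, 19 of the 116 genes stood above 1 and 2 below -1 (median 0.40), against 4.19% and 14% of all genes.

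RNA medians were also taken with and without each kind of promoter letters. For WT CD11c-low over WT basal the median was 2.41 for the 13 genes with a CHR element and 2.39 for the 16 without, among those with a promoter entry. For the E2F forms it was 2.41 for 13 genes with and 2.39 for 16 without, and for the CCAAT box 2.16 for 23 genes with and 2.54 for 6 without. The CHR medians for WT CD11c-high over WT basal were 1.68 with and 1.21 without. The CCAAT medians for WT CD11c-high over WT CD11c-low were -0.10 for 22 genes with and -0.88 for 6 without. These are descriptions over genes, which are not independent replicates.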

How the data were processed

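H3K27ac ChIP-seq was analysed from the deposited peak lists of 5 comparisons. Per the study's methods and the submitters' processing notes, FastQC 0.11.9 served for quality control, Bowtie2 for mapping and SAMtools 0.1.19 for removing duplicate reads, while HOMER called the peaks over input and ran DESeq2. The deposited signal is a normalized tag count per peak and library, which the authors scaled to the mean size of the 4 libraries of a comparison. Only peaks past the authors' thresholds are listed, each with the gene of the nearest start. The deposited p-value columns of the peaks hold the authors' own comparisons and served only to recover the number of peaks tested, and their fold changes were not used. The methods name hg19 and the labels mm10 as well. Distances to the start recomputed in GRCm38.p6 differed by at most 100 bp from the listed ones for 7743 of 8023 peaks (96.5%), so mm10 was used.

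The deposited RNA log2 fold change and mean level are the authors' comparison values. They were used as deposited because the RNA libraries are not samples of this series, and 19 per-library columns were left out. The adjusted p-value of that deposited table was read for the basal comparison only. A workbook name says ChIP, but gene rows with transcript lengths were taken as RNA. For each gene the transcript row with the highest mean level was kept. Where replicates share a number, the labels do not tie it to an animal or day.

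Peak values were fitted with limma 3.58.1 on log2(value + 1), with Benjamini-Hochberg adjustment over all listed peaks of a comparison, two-sided. Values up to 100 reads were whole multiples of 1 read in 100% of cases (within 0.1 read), which gave read numbers and relative depths. Alternatives used edgeR 4.0.16 and DESeq2 1.42.0 on those reads. The setting with TMM factors was an edgeR fit, and the scripts were tested on simulated data. The genes and gene lists were chosen with earlier results of these data known. Named were all listed peaks of the 36 genes, the 5 highest and 5 lowest genes per RNA comparison with a mean level of at least 10, genes with a listed peak, and Mki67, Top2a, Cdk1, Mcm2, Pcna and E2f1; other cell-cycle genes were named for a listed peak or, up to 3 per list, for the size of their RNA value. Motif letters were chosen after the peaks were seen. Work was done in R 4.3.3 and Python 3.11.15.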

Additional observations from a re-analysis of the deposited data

How the results depend on the processing

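The 26 listed rows near the 36 genes kept direction and call with a pseudocount of 5, and with edgeR or DESeq2 on recovered reads. The 21 rows with a mean of at least 50 tags kept them under that filter. All listed peaks had been selected with DESeq2 on the same libraries, and 98.9% to 100% of them passed the main limma fit, by comparison and direction. A call kept in any refit here is therefore no independent support. The share of all listed peaks that kept the call was not counted for the refits. An edgeR fit with TMM factors over the listed peaks alone is a construction in which mostly higher peaks set the scale. It kept the call of 18 rows, lost it in 6 and reversed 2, which left 6 called rows in WT CD11c-low against WT basal. The reversed rows were the Ccne1 promoter (-0.08) in WT CD11c-low and Kif11 (-0.28) in WT CD11c-high, each against WT basal. Within 10 kb of the start lay 6, 6 and 0 rows of the comparisons that had 10, 14 and 2. Leaving out single replicates gave 10 to 10, 13 to 14 and 2 to 2 called rows in these comparisons. With the replicate number as a block, the calls stayed at 10, 14 and 2 rows; correlations of same-numbered deviations lay between -0.082 and 0.136, and the labels do not say whether equal numbers, or the WT CPZ sorts, share animals, so numbers were not taken as pairs.

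Counts of genes past an RNA log2 of 1 depended on the level limit. Without it they were 2 lower genes in KO basal (0 with it) and 26 higher genes in WT CD11c-high against WT basal (17 with it). With a limit of 50 they were 3 and 2 higher genes in WT CD11c-low and WT CD11c-high against WT basal, 0 higher and 0 lower in WT CD11c-high against WT CD11c-low, and 2 and 5 higher in KO CD11c-low against WT CD11c-low and WT CD11c-high. Beyond 0.5 in place of 1, 2 genes were lower in KO basal, 2 higher and 7 lower in WT CD11c-high against WT CD11c-low, and 18 and 22 higher in KO CD11c-low against WT CD11c-low and WT CD11c-high. Shares of all genes were not taken at a limit of 50 or beyond 0.5, so those counts have no background to be judged by. The limit of 50 also removed most G2/M genes in the comparisons with WT basal. Only Mki67 (2.77, mean level 95.8) and Top2a (2.65, mean level 52.5) passed it in WT CD11c-low, and only Mki67 (2.66, mean level 69.6) in WT CD11c-high. The other genes left were MCM genes, Pcna and Rrm1. Centring on the median of all genes moved Bub1 from 1.00 to 0.98 in KO CD11c-low against WT CD11c-low. The low depth of WT basal limits peaks with few reads there.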

Other observations

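KO CD11c-low was also set against WT CD11c-high for the 116 other cell-cycle genes. A higher listed peak was found for 6 (5.17%, against 1.66% of all genes and 1.98% of tested peaks) and a lower one for none. The 6 genes were Ccnd1, E2f3, Kif23, Racgap1, Dnmt1 and Cdkn1a, a CDK inhibitor gene. The Kif23 peak overlapped the neighbouring gene Paqr5. At Dnmt1 only 2.13 and 0.92 tags lay in WT CD11c-high, and the KO CD11c-low replicates differed widely (39.8 and 4.76, limma adjusted p = 0.043). E2f3 and Ccnd1, chosen after their values were seen, are given here at overlapping regions of comparisons that share the WT CD11c-high libraries. Near E2f3, an activating E2F gene, a region at -56.1 kb from the start (chr13:30038347-30045987) held 1582 and 1118 tags in WT basal, against 516 and 565 in the WT CD11c-high libraries (difference -1.30, SE 0.28, limma adjusted p = 0.0043). Between the KO CD11c-low and WT CD11c-high libraries the overlapping region (chr13:30039931-30045590) held 604 and 668 tags in WT CD11c-high, against 1397 and 1393 in KO CD11c-low (difference 1.13, SE 0.17, limma adjusted p = 0.003). E2f3 RNA stood at log2 -1.20 in the first and 0.84 in the second of these comparisons. The second differs in both genotype and sort, and no E2f3 peak was listed between the genotypes within the CD11c-low sort.

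At Ccnd1, the D-type cyclin that answers growth factors, a distal region at -108.4, -108.2 and -108.0 kb from the start was listed in 3 comparisons. It held 466 ± 23.5 tags in WT basal against 197 ± 5.54 in WT CD11c-high (SD, n = 2), 104 and 138 in WT CD11c-low against 50.7 and 58.2 in WT CD11c-high, and, in the comparison that differs in both genotype and sort, 107 and 123 in WT CD11c-high against 240 and 277 in KO CD11c-low. No Ccnd1 peak was listed between the genotypes within the CD11c-low sort. Boundaries and scaling differed between the 3 lists. Ccnd1 RNA stood at -0.49, -0.08 and 0.73 in the same comparisons, and the nearest other coding gene was LTO1. At Cdc6, which loads the MCM helicase, the only listed peak of these 116 genes in KO CD11c-low against WT CD11c-low lay in intron 9, with 39.4 and 43 tags in WT cells against 141 and 69.2 in KO cells (difference 1.24, SE 0.38, limma adjusted p = 0.017), and the KO replicates differed by more than the WT ones.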
